A study of Caenorhabditis elegans with 3 samples.

Results

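The genes that encode the subunits of the proteasome were examined for binding of EGL-27 in larvae of Caenorhabditis elegans. They were taken as all protein-coding genes whose symbol begins with pas-, pbs-, rpn- or rpt-, which gave 33 of 19973 genes. Of these, 14 encode the core particle (7 pas and 7 pbs genes) and 19 the regulatory particle (6 rpt and 13 rpn genes). The measurements came from chromatin immunoprecipitation and sequencing (ChIP-seq) in 1 group of whole worms at the L2 stage, with 3 biological replicates. The sex of the worms was recorded as males and females pooled. All were of strain OP177, which carries unc-119(ed3) III and the integrated transgene wgIs177. The transgene expresses EGL-27 with GFP and FLAG at its C-terminus. Binding was therefore that of a tagged protein summed over all tissues, in 1 transgenic line, and no untagged or mutant group was compared.

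The proteasome degrades proteins marked with ubiquitin. Its core particle is a barrel of stacked rings, with alpha subunits (pas genes) on the outside and beta subunits (pbs genes), some of which cut proteins, on the inside. The regulatory particle caps the barrel. Its base holds the ring of ATPases (rpt genes) that unfold and feed the substrate, together with large scaffold subunits and ubiquitin receptors, and its lid removes the ubiquitin. All subunits are needed in nearly fixed proportions, and in this worm the transcription factor SKN-1 raises the expression of proteasome genes when the proteasome is impaired. EGL-27 is a homologue of the MTA proteins of the NuRD chromatin complex and has a GATA-type zinc finger.

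A gene was counted as bound when the summit of a peak lay between 1000 bp upstream and 200 bp downstream of its 5' end, and a summit in the windows of several genes counted for each. The peaks were the 1997 regions that the authors kept by the irreproducible discovery rate (IDR), a measure of agreement between replicate rankings, with a signal from 34.8 to 378. Regions that did not reach this set were read from the authors' longer list of 30000 regions of the pooled replicates, and from each replicate's own list (13245, 30000 and 30000 regions for replicates 1, 2 and 3). Each region's signal was computed by the authors on a scale they do not name, so signals were compared only within a list. The files hold no read counts, so the depth behind a value is unknown.

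EGL-27 was found at 5 of the 33 genes (15.2%), while 1207 of 19973 protein-coding genes were bound (6.04%). All 5 encode the regulatory particle. They were rpn-3, rpn-5 and rpn-11 of the lid, rpn-2, a large scaffold subunit of the base, and rpt-2, an ATPase of the base. None of the 14 core particle genes had an IDR summit in its window. By position in the complex, 3 of 9 lid genes, 2 of 10 base genes (with rpn-10 counted in the base), 0 of 7 alpha ring genes and 0 of 7 beta ring genes were bound. No IDR summit lay within the body of any of the 33 genes outside this window. Taking the 1997 strongest regions of the pooled list gave the same counts, 5 of the 33 genes and 1207 of all genes. Of all IDR peaks, 60.1% overlapped a listed region of replicate 1, 99.5% one of replicate 2 and 99.6% one of replicate 3. A place in the IDR set thus does not by itself show that all 3 replicates agreed on that peak.

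The sequences at the bound summits are shown here because the peaks of rpt-2, rpn-2 and rpn-11 hold the same 9 bases close to their summits. Positions are on ce11 and each sequence runs 5' to 3' along the strand of the proteasome gene, with 60 bases on each side of the summit. For rpn-11, where the summit lies past the 5' end, only 30 bases are given. Capitals mark ATTGTCATC, or its reverse complement where it lies on the other strand.
rpn-3, chrIII:8447107-8447227, plus strand: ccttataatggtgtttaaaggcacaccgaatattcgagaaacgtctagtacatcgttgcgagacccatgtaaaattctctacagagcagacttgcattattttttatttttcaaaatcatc
rpn-5, chrII:4698415-4698535, minus strand: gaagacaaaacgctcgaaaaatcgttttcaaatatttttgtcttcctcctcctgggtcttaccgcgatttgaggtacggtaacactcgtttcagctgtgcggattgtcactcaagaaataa
rpt-2, chrV:6017745-6017865, minus strand: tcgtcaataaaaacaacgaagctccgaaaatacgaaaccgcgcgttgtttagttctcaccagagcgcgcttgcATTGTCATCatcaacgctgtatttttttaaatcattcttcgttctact
rpn-2, chrIII:6198780-6198900, plus strand: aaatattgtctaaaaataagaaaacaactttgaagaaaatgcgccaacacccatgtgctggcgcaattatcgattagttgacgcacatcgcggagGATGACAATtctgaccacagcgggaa
rpn-11, chrII:4044503-4044532, minus strand: gtaccccgcaATTGTCATCctcacaatttt
pbs-1, chrIV:1709875-1709995, minus strand: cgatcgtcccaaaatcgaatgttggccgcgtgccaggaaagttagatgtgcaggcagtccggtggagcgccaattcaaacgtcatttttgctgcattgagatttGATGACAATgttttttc
The last sequence, from pbs-1, belongs to a region of the pooled list that was not in the IDR set, and is given because it holds the same 9 bases.

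The strongest of the 5 peaks stood upstream of rpn-3, a lid subunit (III, 8447092 to 8447238). Its signal of 106 ranked 196 among the IDR peaks, and 99.4% of protein-coding genes had a lower signal in their window (genes without a region counted as 0). The overlapping region had a signal of 55.5 and rank 109 in replicate 2 and a signal of 51.1 and rank 255 in replicate 3. Replicate 1 listed no region there. The peak was listed with a width of 147 bp. The other proteasome peaks were each exactly 350 bp, the median of IDR peaks, so widths were not read as the breadth of binding. The summit at rpn-3 lay 186 bp upstream of the 5' end.

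The other 4 peaks were weaker, with ranks from 1326 to 1812. The median signal of the 5 was 41.2, against 52.4 for all 930 IDR peaks with a promoter summit. The peak of rpn-5, a lid subunit (II, 4698300 to 4698649), had a signal of 43.7, with its summit 48 bp upstream. It was not listed in replicate 1 and ranked 1366 in replicate 2 (signal 19.2) and 1250 in replicate 3 (signal 24.1). The peak of rpt-2 (V, 6017630 to 6017979) had a signal of 41.2, with its summit 136 bp upstream. It too was absent from replicate 1 and ranked 1024 in replicate 2 (signal 22.3) and 1842 in replicate 3 (signal 19.4). These peaks thus rested on replicates 2 and 3, which placed their summits within 32 bp of the pooled one.

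The peaks of rpn-2 and rpn-11 were listed in every replicate but were strong in fewer. At rpn-2 (III, 6198665 to 6199014, signal 39.4, summit 344 bp upstream) replicate 3 gave rank 1092 (signal 25.8), replicate 2 rank 5417 (signal 8.85) and replicate 1 rank 12016 of 13245 (signal 2.16). The summit of replicate 1 was 147 bp from the pooled one. At rpn-11, the gene of the deubiquitinating enzyme of the lid (II, 4044361 to 4044710, signal 36.7), the summit lay 10 bp past the 5' end. Replicate 1 gave rank 1164 (signal 6.71), replicate 3 rank 1997 (signal 18.7) and replicate 2 rank 3581 (signal 11.2), with summits 18 bp or less from the pooled one. No peak of a proteasome gene was among the 1997 strongest regions of all 3 replicates.

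**Figure D1:**
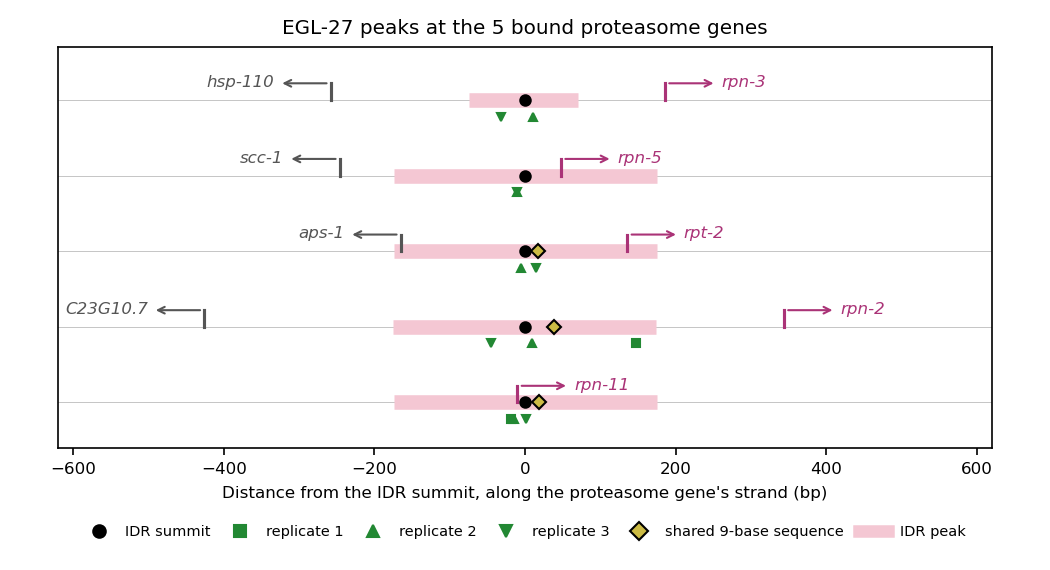
The peaks at the 5 bound genes, one per row, by distance in bp from the IDR summit (black point) along the strand of the proteasome gene. Bands are the IDR peaks, arrows the 5' ends of the proteasome gene and of the other gene in the window, green symbols the summits of the replicates' regions and diamonds the shared 9 bases. The summits of rpn-3, rpn-5, rpt-2 and rpn-2 lie between a pair of genes read away from each other, and that of rpn-11 lies 10 bp past its 5' end.

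In 4 of the 5 cases the summit also fell in the window of a gene read in the opposite direction, so the peak cannot be given to either gene alone. The rpn-3 summit lay at -258 bp from the 5' end of hsp-110, which encodes a chaperone of the Hsp110 family. The rpn-5 summit lay at -246 bp from that of scc-1, which encodes a cohesin subunit, and the rpt-2 summit at -165 bp from that of aps-1, which encodes a small subunit of a clathrin adaptor. The rpn-2 summit lay at -426 bp from that of C23G10.7. In each case the summit was closer to the proteasome gene, the difference being smallest at rpt-2 (-136 and -165 bp). The 5' ends of the paired genes were 294 to 770 bp apart. Of all 930 promoter IDR summits, 279 fell in the windows of 2 or more genes.

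Such paired 5' ends were frequent among proteasome genes whether or not they were bound. A gene read in the opposite direction began within 1000 bp upstream of 21 of the 33 (63.6%), against 17.7% of all protein-coding genes. There were 9 of 14 in the core and 12 of 19 in the regulatory particle. Among all genes, 13.6% of those with such a partner and 4.42% of those without were bound. Among proteasome genes 4 of 21 with a partner and 1 of 12 without were bound. The part of this arrangement in the proteasome's share of bound genes was not tested. In 8 of the 33 genes the next gene upstream was on the same strand and ended within 500 bp, as is common for genes inside worm operons. Of these 8, rpn-11 was bound, and none of their upstream neighbours was bound. Annotation of operons was not used here.

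Of the proteasome genes, only those of the regulatory particle had a summit in the window among the strongest regions of any single replicate. Taking the 1997 strongest regions of each, replicate 1 had 1 regulatory gene (rpn-11), replicate 2 had 4 (rpn-3, rpn-5, rpt-2 and rpt-6) and replicate 3 had 6 (rpn-2, rpn-3, rpn-5, rpn-11, rpt-1 and rpt-2). In replicate 3 the region of rpn-11 was the last one taken, at rank 1997. The share of all protein-coding genes bound in these sets was 3.88%, 6.05% and 5.69%. None of the 14 core genes was bound in any replicate, although 1 strong region of replicate 3 with its summit just outside the window overlapped the pooled region of pas-5. By a summit in the window, the closest core gene was pas-4, at rank 2124 in replicate 2. The regulatory share was therefore 19.3% ± 13.2 (SD, n = 3) and the core share 0%, a difference of 5.26, 21.1 and 31.6 percentage points in replicates 1, 2 and 3. With no core gene bound in any replicate the difference could not be negative. The exact sign-flip permutation test over replicates, two-sided, gave p = 0.25, the smallest that 3 replicates allow, and so adds nothing on the direction. No gene was in all 3 sets, and rpn-3, rpn-5 and rpt-2 were in those of replicates 2 and 3. Replicate 1 stood apart over the whole genome. Its list held 60.1% of all IDR peaks and its 1997 strongest regions 32.0%, against 77.7% and 79.2% for the strongest regions of replicates 2 and 3. Of the 5 proteasome peaks, it listed those of rpn-2 and rpn-11. When IDR peaks were required in the strongest regions of both remaining replicates, 3 genes stayed bound without replicate 1 (rpn-3, rpn-5 and rpt-2), 1 without replicate 2 (rpn-11) and 0 without replicate 3. The share of all protein-coding genes fell as well, from 6.04% to 3.87%, 1.71% and 1.77%.

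**Figure D2:**
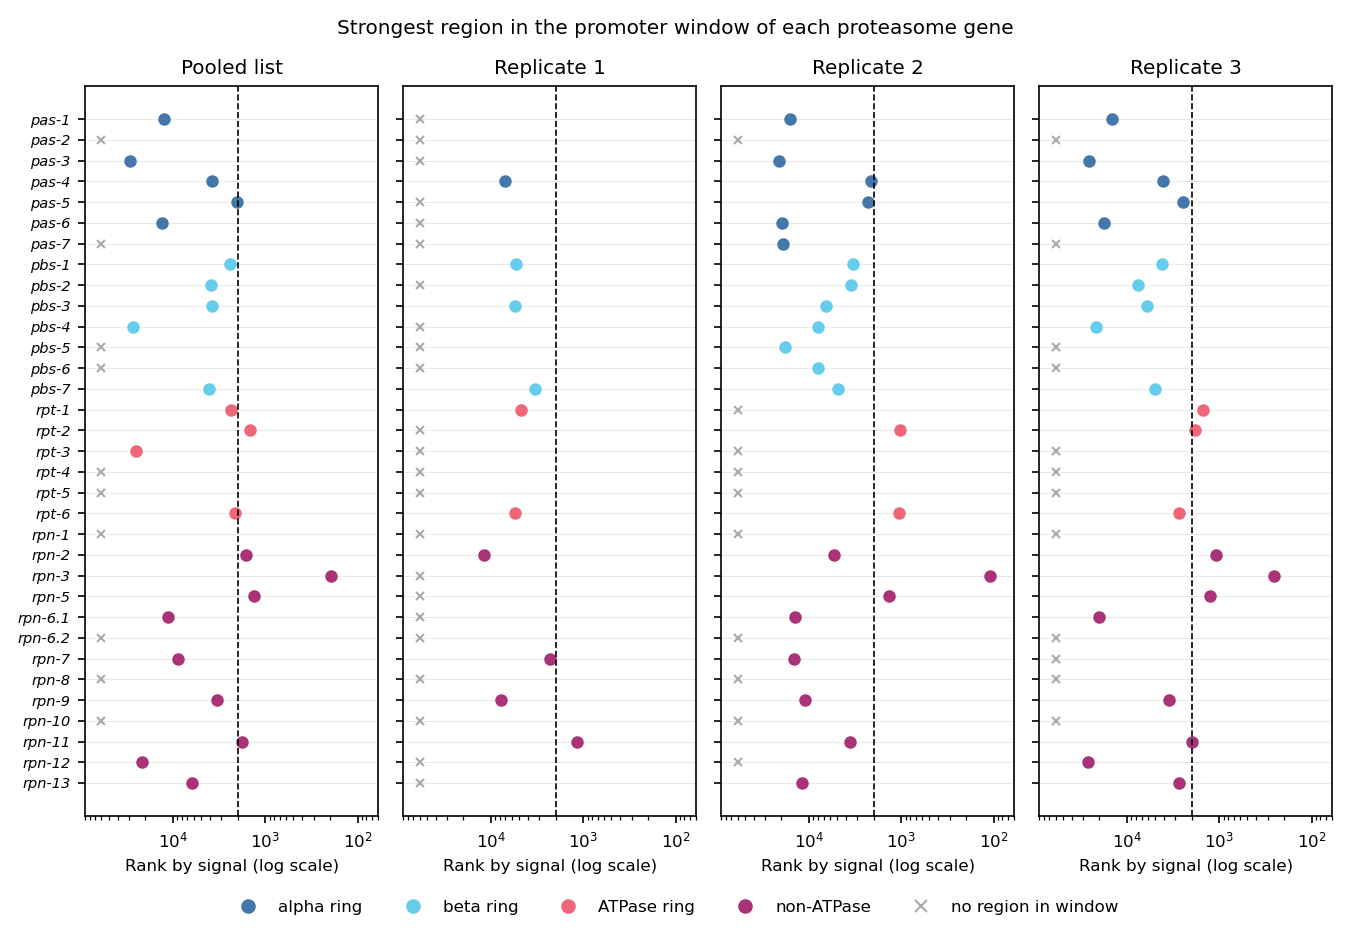
Rank by signal, on a log scale with the strongest to the right, of the strongest region in the window of each proteasome gene, in the pooled list and in each replicate's list. Colours give the ring or class of subunit, crosses genes without a region and the dashed line rank 1997. In the pooled list 5 regulatory genes lie to the right of the line, while pas-5, at rank 2011, lies just to its left.

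Core particle genes came in at a threshold below that of the IDR set. The lowest IDR signal among proteasome genes was 36.7 at rpn-11 (rank 1812 of the pooled list), and the highest signal of a gene outside the set was 34.6 at pas-5 (rank 2011), an alpha ring gene. The lowest signal of the IDR set itself was 34.8. Next below came the ATPase genes rpt-6 (signal 33.6, rank 2123) and rpt-1 (signal 31.3, rank 2379), the beta ring gene pbs-1 (signal 30.9, rank 2448) and the lid gene rpn-9 (signal 25.5, rank 3347). When the 3994 strongest pooled regions were taken, 13 of the 33 genes were bound (39.4%), against 10.8% of all protein-coding genes. These were 5 of 14 core genes (pas-4, pas-5, pbs-1, pbs-2 and pbs-3, 35.7%) and 8 of 19 regulatory genes (42.1%). The difference between the particles shrank from 26.3 to 6.39 percentage points. With 4271 regions the core share was the higher, 42.9% against 42.1%, and with 7988 regions the regulatory share was, 47.4% against 42.9%. With only the stronger 998 IDR peaks, rpn-3 alone was bound, and 3.28% of all genes.

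Several genes near the threshold had support in single replicates. Ranks given here are those of regions with a summit in the window, unless overlap is named. The window of pas-5 held its strongest region at rank 2297 in replicate 2 (signal 14.4) and rank 2509 in replicate 3 (signal 16.3), and no summit of replicate 1. The strongest region overlapping the pooled region of pas-5 was also read, as for the bound genes. It had rank 681 in replicate 3 (signal 33.2), rank 2297 in replicate 2 and rank 4130 in replicate 1 (signal 4.19). The overlapping summits of replicates 3 and 1 lay outside the window, -191 and -147 bp from the pooled summit. An IDR peak of signal 47.2 had its summit at -1134 bp from the 5' end of pas-5, just outside the window. The overlapping summits of replicates 3 and 1 lay closer to this summit than to the pooled one at -934 bp. Rank 681 therefore cannot be given to the pooled region alone. The replicate 3 region of rank 2509 had its summit at -926 bp. At rpt-6 the strongest region ranked 1064 in replicate 2, 2718 in replicate 3 and 5557 in replicate 1, where its summit was at -384 bp. The strongest pooled summit, at -740 bp, lay at -666 bp from the 5' end of his-72, a histone H3 gene. By overlap with that pooled region, replicate 1 gave rank 8201. A second pooled region of rpt-6 had its summit at -242 bp (signal 30.2, rank 2545). Near it were regions of rank 2170 in replicate 2 (-260 bp) and rank 3401 in replicate 3 (-225 bp). At rpt-1 the rank was 1522 in replicate 3 and 4782 in replicate 1, and replicate 2 listed nothing. The summit of replicate 1 lay 62 bp past the 5' end of rpt-1, 186 bp from the pooled one at -124 bp. At pbs-1 it was 5341, 3390 and 4221 in replicates 1, 2 and 3, so all 3 replicates listed a region and none ranked it among its strongest 1997. Its summit was shared with K08D12.3. At rpn-9 the ranks were 7803, 11043 and 3558, and its summit was shared with T06D8.9.

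Weaker regions covered most of the remaining genes. The pooled list had a region in the window of 23 of the 33 genes (69.7%), against 40.1% of all protein-coding genes. In the core this was 10 of 14 genes (71.4%) and in the regulatory particle 13 of 19 (68.4%). With genes without a region counted as 0, the median signal was 11.7 for the core, 14.3 for the regulatory particle and 0 for all genes. The signals of the 18 unbound genes with a region ran from 6.81 at pas-3 to 34.6 at pas-5. Among the strongest pooled summits of each gene the median position was -165 bp for the core, -265 bp for the regulatory particle and -246 bp for all genes. The positions were widely spread, in the core from -934 bp at pas-5 to 40 bp past the 5' end at pas-6, and the difference was not tested.

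The 10 genes without a region in the pooled list were pas-2, pas-7, pbs-5 and pbs-6 of the core, and rpn-1, rpn-6.2, rpn-8, rpn-10, rpt-4 and rpt-5 of the regulatory particle. Of these pas-7, pbs-5 and pbs-6 had a weak region in replicate 2 (ranks 19406, 18256 and 7932). The other 7 genes had none in any list, among them rpn-1, a scaffold subunit, rpn-8, the partner of rpn-11 in the lid, and the ubiquitin receptor rpn-10. They made up 1 of 14 core genes and 6 of 19 regulatory genes, against 36.8% of all protein-coding genes, so the regulatory count was near that of the genome. Within the lid, rpn-3 ranked 196 in the pooled list while rpn-8 had no region. Among the ATPases, which form 1 ring, rpt-2 was bound, rpt-1 and rpt-6 came just below, rpt-3 had a weak region (signal 7.58) and rpt-4 and rpt-5 had none.

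**Figure D3:**
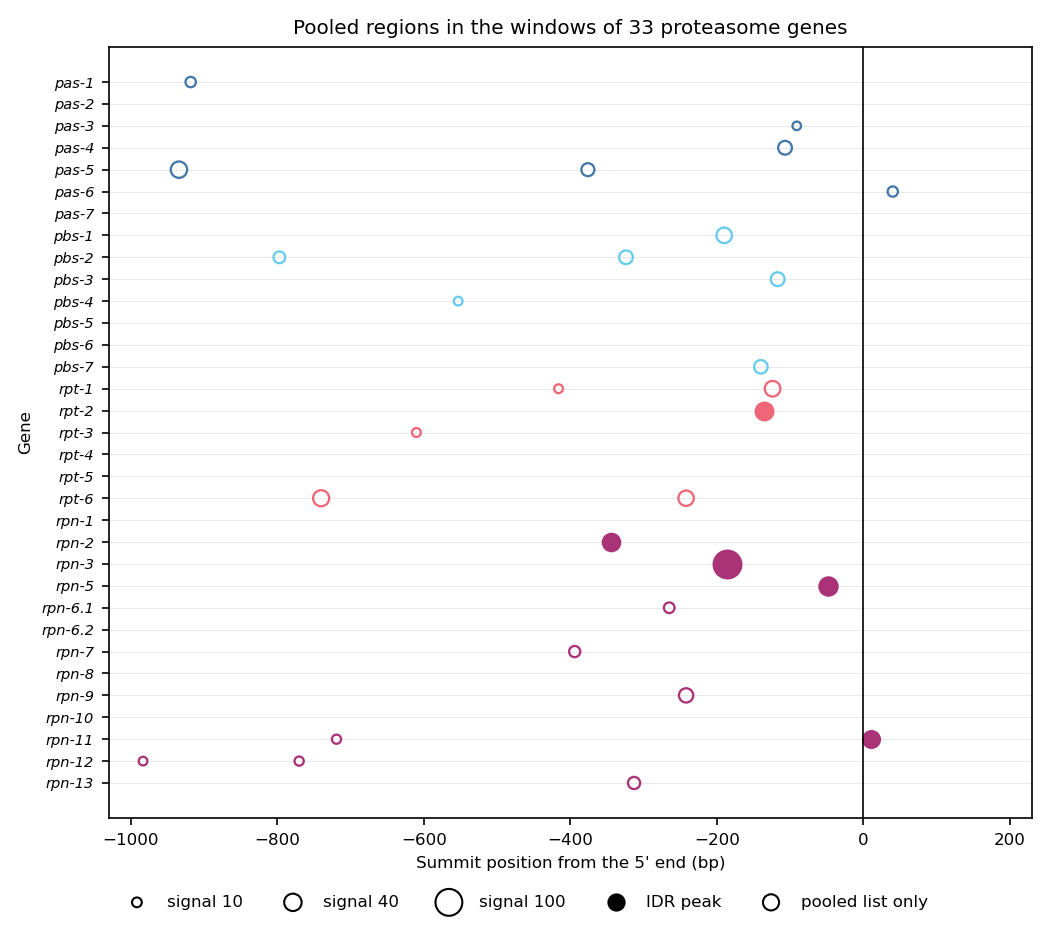
Summits of pooled regions by their position from the annotated 5' end in bp, for each of the 33 genes, with the area of a circle rising with the signal. Filled circles are IDR peaks and open circles regions of the pooled list only. The 5 filled circles lie between 344 bp upstream and 10 bp downstream, and 10 genes have no circle.

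**Figure D4:**
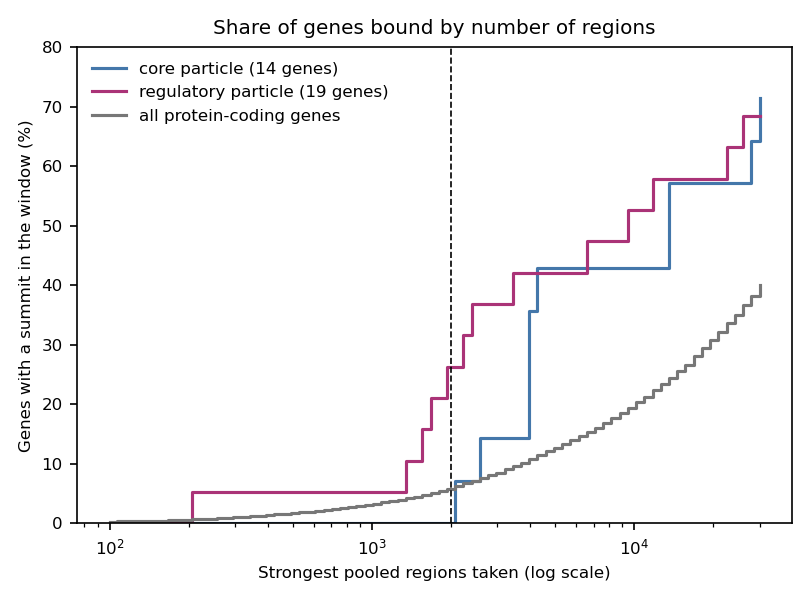
The share of genes with a summit in the window, in percent, as more of the strongest pooled regions are taken (log scale), for the core particle, the regulatory particle and all protein-coding genes. The dashed line marks 1997 regions, where the shares are 0%, 26.3% and 6.04%. At 3994 regions they are 35.7%, 42.1% and 10.8%, and at 30000 regions 71.4%, 68.4% and 40.1%.

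Short sequence patterns were counted within 100 bp of each summit, on both strands. GATAAG and TGATAA, which share the letters GATAA and are typical GATA factor sites, were in 0 of the 5 proteasome windows, against 12.7% and 15.9% of all IDR windows. GAGAGA, in 49.3% of all IDR windows, was also in 0 of 5, as were CACGTG (9.11%), GGGCGG (8.96%) and TATCAT (11.4%). TGTCAT was in 3 of 5 (rpt-2, rpn-2 and rpn-11), against 10.4% of all IDR windows and 9.03% of promoter IDR windows. TGTCAT and TATCAT are the right-hand parts of variants of the SKN-1 binding site. On its other strand TATCAT reads ATGATA, which shares TGATA with TGATAA. With 5 windows these counts describe the peaks and were not tested.

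In all 3 cases the 6 bases were part of ATTGTCATC, shown in capitals above. It began 13, 35 and 14 bases past the summit in rpt-2, rpn-2 and rpn-11, and stood on the other strand in rpn-2. This longer sequence was chosen after these windows were seen, so its presence in them is no finding. It was in 0.451% of all IDR windows and 0.860% of promoter IDR windows, shares that include the 3 windows it was chosen from. In promoters from 250 bp before to 50 bp after the 5' end it was in 4 of the 33 proteasome genes (pas-2, pbs-1, rpn-11 and rpt-2) and in 112 of 19973 protein-coding genes (0.561%). Both counts include rpn-11 and rpt-2, from whose windows the sequence was chosen, so 4 of 33 is not a fresh count. Only pas-2 and pbs-1 lie outside those windows, and pas-2 had no region in any list. In the same promoters TGTCAT was in 12 of the 33 genes (36.4%), 5 of 14 in the core and 7 of 19 in the regulatory particle, against 16.3% of all genes. GATAAG was in 2 of the 33 (6.06%, all genes 16.7%) and TGATAA in 10 (30.3%, all genes 30.2%). The median G+C content of these promoters was 34.3%, as for all genes.

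Some genes that act with the proteasome were bound as well. Of a list of 24 regulators and partners, 5 were bound (20.8%, against 6.04% of all genes). The strongest was cdc-48.1, an ATPase that extracts ubiquitinated proteins (signal 268, rank 7). Its region was at rank 71, 6 and 8 in replicates 1, 2 and 3, so it was strong in every replicate, unlike any subunit gene. The others were ubql-1, a shuttle factor of the ubiquilin family (signal 93.2), wdr-23, an adaptor for the degradation of SKN-1 (signal 81.9), ubq-2, a ubiquitin fusion gene (signal 58.2), and ecps-1, a homologue of a proteasome adaptor (signal 55.7, with a second IDR summit in the window). No region of the pooled list lay in the windows of skn-1 itself or of ddi-1 and png-1, which activate one of its isoforms. Single replicates did list regions there. They were at rank 5140 in replicate 1 and 12746 in replicate 2 for ddi-1, 12777 in replicate 1 for png-1 and 11538 in replicate 3 for skn-1. For skn-1 only the outermost annotated 5' end was used here. The gene of a further small lid subunit, dss-1, had no region in any list.

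Other large complexes are given for comparison, beside the 6.04% of all genes with an IDR summit and the 40.1% with a pooled region. Of 8 genes of the chaperonin CCT, which folds actin and tubulin, 4 were bound: cct-8 (signal 113), cct-1 (signal 111), cct-7 (signal 72.4) and cct-6 (signal 45.6). Of 6 genes of the COP9 signalosome, whose subunits resemble those of the lid, 0 were bound and 2 had a region in the pooled list (33.3%). Of 81 genes whose symbol begins with rpl-, rps- or rla- (cytosolic ribosomal proteins), 44 were bound (54.3%). A region of the pooled list lay in the windows of 7 of the 8 CCT genes (87.5%) and 74 of the 81 ribosomal protein genes (91.4%). For the proteasome genes the share was 69.7%. These differences between groups were not tested.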

How the data were processed

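EGL-27 was measured by ChIP-seq in 3 biological replicates of 1 group. Per the file notes in the deposit, alignments of each replicate and of the pooled replicates were compared with a control to give lists of candidate regions, and the IDR set was drawn from these lists. No source used here names the aligner, the caller or the IDR cutoff. The signal of each region is as deposited by the authors. The −log10 q-value, also as deposited, was at the list's maximum for all IDR peaks. No counts are given, so the depth is unknown.

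Lists on ce11 were joined to protein-coding genes of Ensembl release 115 (WBcel235) with Python 3.11.15, numpy 2.4.6 and pandas 2.3.3, and every region lay inside the chromosomes of the RefSeq genome of that assembly, the source of the sequences. Assignment was tested on simulated summits. Replicate support needed an overlap of 1 bp. The members, lists and patterns were chosen with earlier results of these data known, so shares are given beside those of all genes and no list was tested against other genes. The difference between the particles was set against the 3 replicates by an exact sign-flip permutation test. The named genes are all bound members, the genes sharing their summits, the 5 strongest unbound members, those without a pooled region and the bound genes of the related lists. Named after their values were seen were pas-3, pas-4, pbs-2, pbs-3, rpt-3, skn-1, ddi-1, png-1, dss-1 and the genes sharing summits of unbound members. Of the related genes, csn-7 had no match. Alternatives changed the window, gene assignment, 5' ends, overlap, number of regions and replicates.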

Additional observations from a re-analysis of the deposited data

How the results depend on the processing

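The 5 bound genes were the same with windows of 500 bp, with the nearest 5' end only and with the 5' ends of all transcripts. With windows of 2000 bp, with any overlap of the interval, or with as many pooled regions as the IDR set on ce10 holds (2074, an alternative chosen after seeing the data), the core count rose from 0 to 1 (pas-5). The number of regions and the replicates required moved the counts more. The stronger 50% of peaks left 1 gene in all, 1 regulatory gene and a difference of 5.26 percentage points between the particles. The 3994 strongest pooled regions gave 13 genes, 5 core and 8 regulatory, and 6.39 points. Peaks in the whole list of every replicate left 2 genes, both regulatory (rpn-2 and rpn-11), and 10.5 points, with 3.65% of all genes bound. Peaks in the strongest regions of every replicate, by 1 bp or by 50% of the peak, left 0 genes and 0 points, with 1.58% and 1.42% of all genes bound, so that 0 of 33 is near the share of all genes. Leaving out each replicate in turn gave 0 to 3 genes in all, 0 to 3 regulatory genes and 0 to 15.8 points. The settings that require replicates only removed peaks from the IDR set, which was made from all replicates and had no core gene bound. Under them the core count of 0 and a difference not below 0 were fixed in advance. In windows of 50 bp the pattern counts were those given for 100 bp. No paired analysis was possible because all samples form 1 group. Depth is unknown, so a gene without a region is one where none was listed, not one shown to be unbound.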
